A study of Mus musculus with 98 samples.

Results

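Neuropeptide genes encode the precursors of small signalling peptides, and 10 of them that are used in the hippocampus were followed across 98 mouse RNA-seq libraries: Sst (somatostatin), Npy (neuropeptide Y), Cck (cholecystokinin), Vip (vasoactive intestinal peptide), Tac1 (substance P and neurokinin A), Tac2 (neurokinin B), Penk (enkephalins), Pdyn (dynorphins), Crh (corticotropin-releasing hormone) and Adcyap1 (the pituitary adenylate cyclase-activating peptide PACAP). The genes were chosen by name, and all 10 were found among the 24754 gene symbols that the 6 deposited count tables share. A neuropeptide precursor is cut by prohormone convertases inside dense-core vesicles, is released during sustained firing, and acts on G protein-coupled receptors of neighbouring cells. In the hippocampus Sst, Npy, Vip and Cck are markers of GABAergic interneurons, Cck is also made by principal cells, and Pdyn and Penk are made by granule cells of the dentate gyrus. Several of these genes are classic targets of the cyclic AMP pathway and its transcription factor CREB.

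The study asked how raised amounts of ACSS2, which turns acetate into acetyl-CoA, the donor used for histone acetylation, alter neurons that age or meet pathological tau. Cultures were primary hippocampal neurons from CD1 embryos, transduced on day 5 for 48 h with a PhP.eB virus that was either upACSS2 or its vector control, and given hAD-tau or PBS on day 7. They were sequenced on day 9 or day 21 (3 libraries in each of 8 groups), and a further table held stimulated day 21 cultures (3 libraries in each of 4 groups); the labels do not name the stimulus. A separate table held day 21 cultures that got no virus, 4 with tau and 3 with PBS. The mice were male and got the same viruses: C57BL6 mice of 22 to 23 months (12 upACSS2, 12 vector; whole hippocampus, 2 months after injection, 30 min after remote context recall), mice of 10 months (6 upACSS2, 5 vector; dorsal hippocampus, 2 weeks after injection, 30 min after fear conditioning), and PS19 mice, which carry a mutant human tau transgene driven by the mouse prion promoter, taken 1 or 6 months after injection (5 in each of 4 groups, aged 3.5 or 8.5 to 9 months, 30 min after contextual recall at 24 h). The PS19 upACSS2 mice at 1 month are labelled as whole hippocampus and the other PS19 mice as dorsal hippocampus. As labelled, tissue cannot be told apart from virus at 1 month, from time in the upACSS2 mice, or from the interaction of both. Mice of the PS19 line without the transgene were not analysed here, and the labels do not say whether replicate cultures came from separate dissections, so p-values for cultures measure the spread between these samples only.

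The stretches before the transcription start are shown for 7 of the genes as background: the cyclic AMP response element TGACGTCA, or its core TGACG, is the site that CREB binds. The libraries measure neither cyclic AMP nor the activity of CREB, and the stimulus of the stimulated cultures is not named. The sequences are from RefSeq on GRCm38, 5′ to 3′ along the gene, in lower case with the element or its core on either strand in capitals.
Sst, chr16:23890875-23890904, minus strand: cgcctccttggcTGACGTCAgagagagagt
Vip, chr10:5639118-5639217, plus strand: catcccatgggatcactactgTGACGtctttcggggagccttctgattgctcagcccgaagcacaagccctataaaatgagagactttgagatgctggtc
Adcyap1, chr17:93198917-93199016, plus strand: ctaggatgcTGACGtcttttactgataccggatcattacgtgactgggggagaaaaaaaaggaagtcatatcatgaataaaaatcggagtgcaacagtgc
Cck, chr9:121495695-121495794, minus strand: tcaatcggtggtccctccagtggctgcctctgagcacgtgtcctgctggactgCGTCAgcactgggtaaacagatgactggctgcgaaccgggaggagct
Tac1, chr6:7555001-7555030, plus strand: acgtggctctacaggctCGTCAcgcctgag
Npy, chr6:49822610-49822709, plus strand: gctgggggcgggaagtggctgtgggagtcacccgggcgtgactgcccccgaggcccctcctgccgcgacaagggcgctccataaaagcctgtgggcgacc
Tac2, chr10:127724378-127724477, plus strand: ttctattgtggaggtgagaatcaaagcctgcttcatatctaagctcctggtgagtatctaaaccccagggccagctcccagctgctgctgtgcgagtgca

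Of the 10 genes, 8 had a RefSeq promoter window, which runs from 250 bases before the start to 50 after it. Crh and Penk had no window here, so whether they hold these sites was not examined. The core TGACG stood in the window of 5 of them, on either strand: Sst, Vip, Adcyap1, Cck and Tac1. Sst alone among the 8 held the whole palindrome TGACGTCA, whose first base lies 48 bases before the start and which contains the core on both strands. Over all 32851 windows of the same length, 20.8% held the core and 1.79% the whole element. No window of the 8 genes held TGACTCA, an AP-1 site found in 5.20% of all windows, or GCGGGGGCG, an EGR site found in 2.91%. A match is a description of letters in these windows and not evidence of binding.

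Libraries held 5075099 to 39985460 counts assigned to genes, and no replicate pair looked like 1 library deposited again. Acss2 was used to check the labels. In cultures with virus it lay at 1488 to 5462 CPM in every upACSS2 library and at 40.1 to 57.9 CPM with vector. In mice its groups overlapped except at 10 months, and the difference passed no test across genes there, so the mouse comparisons are between libraries labelled by virus. CPM here is the usual depth-scaled count, taken over the effective library size, and log2 CPM adds a prior count of 2. PBS replicate 3 of the cultures without virus stood apart: its summed level of 10 astrocyte markers was 2368 CPM against 8763 and 10371 CPM in the other PBS cultures.

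Levels were divided by the length of the union of all annotated exons of a gene, as a rough way to compare different genes. An order that rests on this length can change with the transcript in use. Per kilobase, Sst and Cck were the most abundant of the 10 transcripts in all sets of libraries and Npy the third. In day 9 cultures the median level per kilobase was 124 CPM for Sst, 26.4 CPM for Cck, 8.33 CPM for Npy and 3.70 CPM for Tac1, and the ranges of these 4 did not overlap. Adcyap1, Penk and Tac2 followed at 1.59, 1.30 and 1.18 CPM per kilobase with overlapping ranges, then Pdyn at 0.649 CPM, which overlapped Tac2. Crh at 0.138 CPM and Vip at 0.121 CPM per kilobase were last and overlapped. In day 21 cultures Sst stood at 221, Cck at 98.8, Npy at 43.4, Tac1 at 9.49, Penk at 4.85 and Vip at 0.799 CPM per kilobase, with overlap between Cck and Npy and between each pair of neighbours from Tac1 down, and none between Sst and Cck or between Npy and Tac1.

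Tissue differed from culture mainly in the middle and lower part of that order. In the aged mice the medians per kilobase were 233 CPM for Sst, 166 CPM for Cck, 52.6 CPM for Npy, 17.6 CPM for Penk, 7.12 CPM for Vip, 3.96 CPM for Pdyn and 2.81 CPM for Tac1. Tac1 held rank 4 of the 10 in cultures and rank 7 in aged mice, while Vip held rank 9 in day 21 cultures and rank 5 in aged mice. In the PS19 mice Cck at 207 CPM per kilobase stood above Sst at 149 CPM, and their ranges overlapped. Crh, at a median of 1.32 CPM per kilobase in aged mice, was last or next to last in every set. In the PS19 mice Adcyap1 was below it at 0.784 CPM per kilobase, and in day 9 cultures Vip was. Both orders were the reverse without division by length. The median was 2.96 CPM for Adcyap1 and 1.66 CPM for Crh in PS19 mice. In day 9 cultures it was 0.413 CPM for Vip and 0.182 CPM for Crh. The tables were normalized separately and tissue and culture differ in strain, age and cell make-up, so these orders are descriptive.

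**Figure D1:**
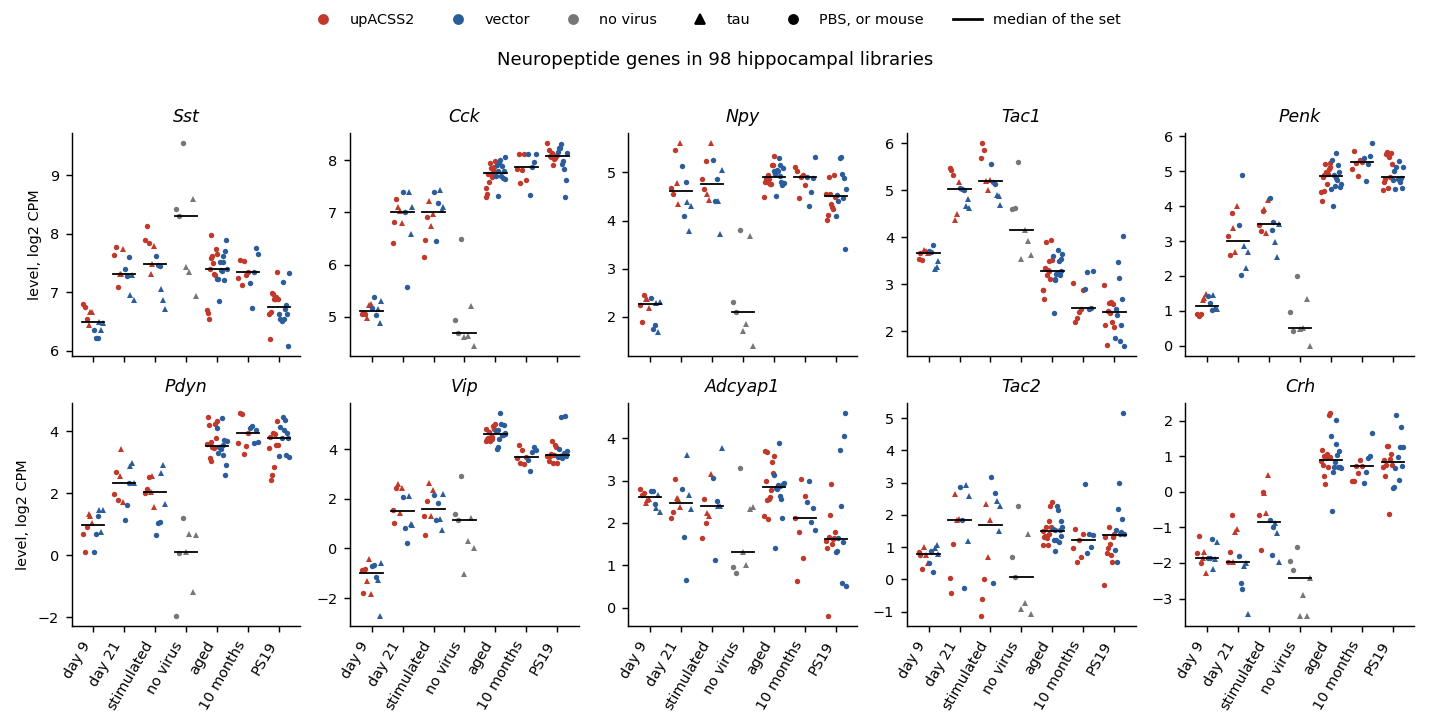
Level of each neuropeptide gene in every library, in log2 CPM, by set; red is upACSS2, blue vector and grey no virus, triangles are tau cultures and circles PBS cultures or mice, and the line is the median of the set. The median of Vip is 0.413 CPM in day 9 cultures, 2.72 CPM in day 21 cultures and 24.2 CPM in aged mice, while that of Adcyap1 stays between 2.40 and 7.11 CPM in all 7 sets.

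Culture day was the comparison in which most of these genes passed the test. Between day 9 and day 21, 8 of the 9 testable genes rose in vector cultures with PBS, 8 in vector cultures with tau, 7 in upACSS2 cultures with PBS and 8 in upACSS2 cultures with tau (edgeR quasi-likelihood test, Benjamini-Hochberg adjusted p under 0.05). The share of all tested genes called higher was 30.6%, 27.7%, 28.5% and 27.2% in these comparisons. The median difference of the 9 genes was 1.43, 1.50, 1.82 and 1.56 on the log2 scale, against 0.05, 0.04, 0.03 and 0.01 over all genes. Crh was too low to be tested, with 0 to 11 counts a library.

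Npy, whose peptide damps glutamate release, rose in all 4 conditions by 2.09 to 2.76 (log2). In vector cultures with PBS it stood at 5.15, 3.26 and 3.45 CPM on day 9 and at 35.1, 17 and 27.8 CPM on day 21 (difference 2.71, SE 0.34, adjusted p = 1.02e-06). In upACSS2 cultures with tau it stood at 5.05, 5.05 and 4.42 CPM and then at 27.5, 20.1 and 48.9 CPM (2.74, SE 0.33, adjusted p = 8.23e-07). Day 9 and day 21 did not overlap in any condition.

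Vip, the peptide of interneurons that inhibit other interneurons, had the highest fitted rise in 3 of the 4 conditions, from counts of 1 to 17 a library on day 9. In upACSS2 cultures with tau its level was 0.316, 0.645 and 0.186 CPM on day 9 and 6.02, 2.57 and 5.33 CPM on day 21, a difference of 3.65 (SE 0.60, adjusted p = 3.86e-05). In vector cultures with PBS it was 0.521, 0.543 and 0.364 CPM and then 4.17, 1.69 and 1.09 CPM (2.21, SE 0.60, adjusted p = 0.00345). The lowest day 21 library was above the highest day 9 library in each condition.

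Sst was the highest of the 10 on both days, and of the genes that rose it had the smallest rise in 3 of the 4 conditions. Its 12 day 9 libraries ranged from 74.1 to 111 CPM with a median of 89.5 CPM, and its 12 day 21 libraries from 116 to 218 CPM with a median of 159 CPM. The ranges did not meet, and the 4 differences were 1.17, 0.61, 0.82 and 0.88. Tac1, whose peptides act on the NK1 and NK2 tachykinin receptors, was also apart on the 2 days, at 9.96 to 14.2 CPM on day 9 and 20.4 to 44.4 CPM on day 21. Its rise was 1.29 in vector PBS, 1.31 in vector tau, 1.84 in upACSS2 PBS and 1.03 in upACSS2 tau cultures, with SE of about 0.14 in each.

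Cck rose by 1.64, 1.94, 1.82 and 1.83 in the order vector PBS, vector tau, upACSS2 PBS and upACSS2 tau. Its 12 libraries lay at 29.3 to 41.5 CPM on day 9 and at 47.4 to 167 CPM on day 21, and again the days did not meet. Pdyn rose by 1.14, 1.53, 1.65 and 1.56, from 0.981 to 2.70 CPM on day 9 to 2.11 to 10.7 CPM on day 21. Its days overlapped in vector PBS cultures, where the call was lost without replicate 3 of day 21 (0.73, adjusted p = 0.182) and under 2 other single left-out libraries.

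Penk rose by 2.71, 1.44, 2.42 and 2.10. In vector PBS cultures it went from 2.61, 2.23 and 1.94 CPM to 10.9, 3.96 and 29.7 CPM, and the last value is that of replicate 3, whose summed astrocyte markers reached 20756 CPM. Without that library the difference was 1.66 (adjusted p = 0.00154). In vector tau cultures the call of Penk was lost without any 1 of 4 of the 6 libraries (adjusted p from 0.0541 to 0.0776). Across the 24 unstimulated libraries the log2 level of Penk had a Pearson r of 0.94 with the summed astrocyte markers, and the libraries share culture day, so this is a description. In all conditions the summed astrocyte markers were higher on day 21 (3778 to 20756 CPM) than on day 9 (2339 to 2904 CPM). The 10 summed markers of the oligodendrocyte lineage were also higher in all conditions, at 1091 to 2775 CPM on day 21 and 195 to 343 CPM on day 9. How far either bears on the neuropeptide differences was not tested. In bulk libraries a change in the number of cells of a type and a change in RNA per cell cannot be told apart.

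Tac2 followed the others in 3 of the 4 conditions, and Adcyap1 did not follow them. Tac2 rose by 1.43, 1.50 and 1.45 in vector PBS, vector tau and upACSS2 tau cultures, while in upACSS2 PBS cultures it was 1.72, 1.58 and 1.15 CPM on day 9 and 0.942, 0.648 and 2.05 CPM on day 21 (-0.32, SE 0.61, adjusted p = 0.683). Each of the 3 calls of Tac2 was lost without any 1 of 4 or 5 of its 6 libraries, with adjusted p from 0.0526 to 0.363. Adcyap1 passed the test in no condition, at -0.76, 0.55, -0.20 and -0.01. Its day 9 libraries lay within 4.72 to 6.84 CPM and its day 21 libraries spread over 1.49 to 12 CPM around them.

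**Figure D2:**
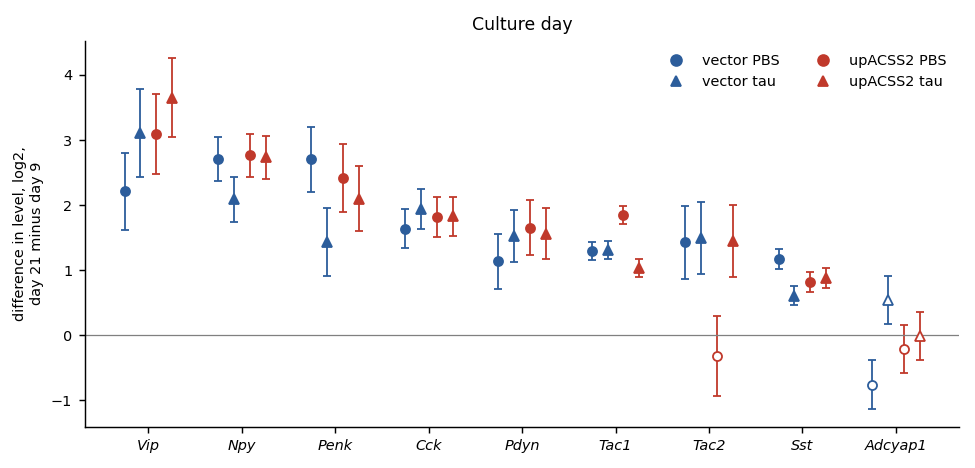
Difference in level between day 21 and day 9, log2, with SE bars, for the 9 testable genes in 4 conditions of virus and tau; filled symbols passed the test. Vip, Npy, Penk, Cck, Pdyn, Tac1 and Sst are above 0 in every condition, and Adcyap1 lies between -0.76 and 0.55 with open symbols.

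The receptors of these peptides moved in both directions between day 9 and day 21. Of 18 tested receptor or binding protein genes, 7, 9, 6 and 9 were called higher and 4, 3, 4 and 2 lower in the order vector PBS, vector tau, upACSS2 PBS and upACSS2 tau. Over all genes the shares called higher were the 30.6%, 27.7%, 28.5% and 27.2% given above, and 27.1%, 24.9%, 25.8% and 26.4% were called lower, so genes at large also moved in both directions. Crhbp, which binds and sequesters the Crh peptide, rose by 2.78, 3.10, 3.56 and 3.38. Npy5r, a receptor for neuropeptide Y, rose by 2.04, 1.98, 2.96 and 2.66. Oprd1, the delta opioid receptor that enkephalins act on, rose by 2.23 in vector tau and 2.13 in upACSS2 tau cultures. Tacr3, the receptor for the Tac2 peptide neurokinin B, fell by 2.42 in upACSS2 PBS and by 2.09 in upACSS2 tau cultures. Vipr2 rose by 2.19 in vector PBS and Oprm1, the mu opioid receptor, by 2.28 in vector tau cultures.

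Of the 16 genes of peptide processing and dense-core vesicles, 3, 3, 7 and 8 were called higher and 1, 1, 1 and 0 lower in the same order of conditions, against the same 27.2% to 30.6% of all genes higher and 24.9% to 27.1% lower. Their medians were 0.09, 0.33, 0.36 and 0.42. Vgf, a granin-like precursor of secretory vesicles, rose by 1.17, 1.98, 2.59 and 2.28. Pcsk1, a convertase that cleaves prohormones, rose by 0.97 in upACSS2 PBS and 1.15 in upACSS2 tau cultures. Cadps2, which primes dense-core vesicles for release, fell by 0.72 in upACSS2 PBS and by 0.60 in vector tau cultures. The 18 GABAergic markers, a list that holds none of the 10 peptides, had 11, 9, 10 and 10 called higher, with medians of 0.43, 0.33, 0.45 and 0.34.

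No neuropeptide gene passed the test for stimulation, while most activity-regulated genes rose. Against the unstimulated day 21 cultures of the same virus and tau treatment, 0 of 10 genes passed edgeR's test in any of the 4 comparisons, where 7.14%, 2.83%, 3.7% and 2.35% of all genes did. At an unadjusted p under 0.05 there were 2, 1, 2 and 2 of them, and DESeq2 called 0 in each. At such shares of all genes, a count of 0 among 10 does not set the neuropeptide genes apart from genes at large. Of 18 activity-regulated genes, 18, 18, 16 and 16 rose, with medians of 4.89, 4.48, 4.18 and 4.08. The medians of the 10 neuropeptide genes were 0.22, 0.06, -0.02 and 0.00. Stimulated and unstimulated cultures were deposited in separate tables, so stimulation and table cannot be told apart.

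Single genes in vector PBS cultures serve as examples. Npas4, a transcription factor induced by calcium entry, rose by 6.57 (SE 0.57, adjusted p = 9.95e-08). Sst, with its full cyclic AMP response element, was at 169, 155 and 194 CPM unstimulated and at 198, 177 and 175 CPM stimulated, overlapping groups with a difference of 0.06 (SE 0.17, adjusted p = 0.862). Vip, with the core alone, was at 4.17, 1.69 and 1.09 CPM and at 4.41, 2.11 and 3.50 CPM (0.52, SE 0.55, adjusted p = 0.576). Both genes had stimulated libraries inside the unstimulated range, and the SE of Vip leaves room for a sizeable change either way. Whether the sites play a part in these levels was not tested.

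Crh was the neuropeptide gene with the largest stimulated excess in each condition, on few counts. Its level was 0.196, 0.077 and 0.0572 CPM unstimulated and 0.505, 0.221 and 0.428 CPM stimulated in vector PBS cultures (2 to 4 against 9 to 11 counts; 1.79, SE 0.72, adjusted p = 0.13). In upACSS2 tau cultures it was 0.161, 0.367 and 0.393 CPM and 0.906, 0.592 and 1.32 CPM (1.53, SE 0.57, adjusted p = 0.25). The groups did not overlap in 3 of the 4 conditions, the exception being upACSS2 PBS, and none passed the test. How many of all genes had their groups apart between these separately deposited sets was not counted.

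Tac1 was a little higher in stimulated cultures in each condition, at 0.25, 0.10, 0.41 and 0.38, and passed in none. In upACSS2 tau cultures the unstimulated levels were 20.4, 22.5 and 35.9 CPM and the stimulated ones 36.4, 32.1 and 37.1 CPM. The third unstimulated culture was the one that overlapped, and without it the difference was 0.68 (adjusted p = 0.00495). Among the processing genes Scg2, secretogranin II of dense-core vesicles, rose by 1.07, 0.98 and 0.93 in vector PBS, vector tau and upACSS2 tau cultures. In vector PBS cultures Vgf rose by 1.44, Pcsk1 by 1.38 and the somatostatin receptor gene Sstr1 by 0.92, and no other receptor or processing gene passed in any condition.

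**Figure D3:**
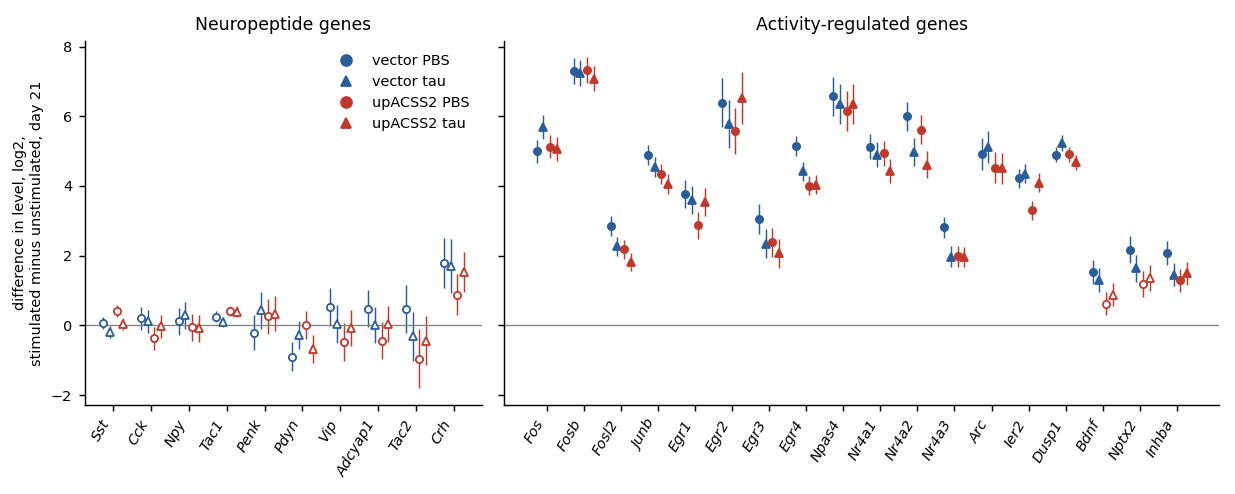
Difference in level between stimulated and unstimulated day 21 cultures, log2, with SE bars, for 10 neuropeptide genes (left) and 18 activity-regulated genes (right) in 4 conditions; filled symbols passed the test. All neuropeptide symbols are open and lie within 1 of 0 apart from Crh, while the medians of the activity-regulated genes are 4.08 to 4.89.

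Tau was followed by lower Tac1 in most pairs of cultures. Tau and PBS cultures of the same virus and day formed 7 pairs, and in 6 of them every tau library had less Tac1 than every PBS library. The exception was day 9 with upACSS2, where tau cultures had more. The call passed the test in 2 of the 7: day 9 with vector and stimulated with upACSS2. The share of all genes whose tau and PBS libraries were apart was not computed. Of the 10 neuropeptide genes, 1 to 4 were apart in each pair, in either direction, Tac1 included. The 7 pairs may not be independent. Deviations of same-numbered stimulated and unstimulated upACSS2 cultures correlated at 0.441 to 0.630 with PBS and 0.108 to 0.284 with tau. With so few libraries in a group, the separation describes these libraries only.

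On day 9 with vector, Tac1 was at 9.96, 10.2 and 11.2 CPM with tau and at 13, 12.8 and 14.2 CPM with PBS, and it fell by 0.35 (SE 0.09, adjusted p = 0.0237). It was the only one of the 8 testable genes that passed, where 4.28% of all genes did. The call was lost without any 1 of 4 of the 6 libraries (adjusted p from 0.0581 to 0.131), with only these 2 groups in the fit (adjusted p = 0.0566), and with all 24 unstimulated libraries in the fit, where the adjusted p was 1. With upACSS2 on day 9, Tac1 was at 13.1, 13 and 12.6 CPM with tau and 11.6, 12.5 and 11.4 CPM with PBS, again without overlap but in the other direction (0.13, SE 0.08, adjusted p = 0.687). There 0 of 8 genes passed (2 at an unadjusted p under 0.05, DESeq2 0), against 0.349% of all genes. The difference between these 2 responses was 0.48 (SE 0.12, adjusted p = 0.0546), and the interaction called 0 of 8 genes against 0.663% of all (3 at an unadjusted p under 0.05, DESeq2 0). Tac1 passed in the interaction without vector tau replicate 3 (0.53, adjusted p = 0.0147).

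On day 21 no neuropeptide gene passed for tau in either virus, and neither did any other gene (0% and 0%; 2 and 2 of 9 at an unadjusted p under 0.05, DESeq2 0 and 0). Tac1 with vector was at 25.3, 28.0 and 24.4 CPM with tau and at 33.1, 32.6 and 32 CPM with PBS (-0.34, SE 0.17, adjusted p = 0.531). With upACSS2 it was at 20.4, 22.5 and 35.9 CPM with tau and at 44.4, 43.3 and 39.7 CPM with PBS (-0.68, SE 0.18, adjusted p = 0.73). Tau was below PBS throughout in both, and replicate 3 of the upACSS2 tau cultures lay nearest to PBS. Without it the difference was -0.98 (adjusted p = 0.0342). The interaction called 0 of 9 genes and 0% of all (0 at an unadjusted p under 0.05, DESeq2 0).

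In stimulated cultures with upACSS2, Tac1 was at 36.4, 32.1 and 37.1 CPM with tau and at 51.4, 64.1 and 58.1 CPM with PBS. It was the only one of 10 that passed, where 0.208% of all genes did, and it fell by 0.72 (SE 0.12, adjusted p = 0.048). Leaving out any 1 of the 6 libraries ended the call, with differences of -0.63 to -0.79 and adjusted p from 0.0784 to 0.219. With vector, Tac1 was at 29.7, 29.1 and 25.7 CPM with tau and at 47.2, 36.3 and 34.9 CPM with PBS (-0.48, SE 0.13, adjusted p = 0.054). Tau lay below PBS in both, and the vector comparison passed with the replicate number as a block (-0.48, adjusted p = 0.0493) and by DESeq2 (adjusted p = 0.0106).

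Sst and Pdyn passed with tau in stimulated vector cultures, where 3.02% of all genes did. Sst was at 132, 116 and 105 CPM with tau and at 198, 177 and 175 CPM with PBS, and fell by 0.64 (SE 0.13, adjusted p = 0.0344). Pdyn was at 6.21, 7.45 and 3.07 CPM with tau and at 1.52, 1.99 and 2.02 CPM with PBS, and rose by 1.59 (SE 0.33, adjusted p = 0.0378). Neither pair of groups overlapped, both calls were lost without tau replicate 1 or 3 or PBS replicate 1 or 3, and both were lost with only these groups in the fit (adjusted p = 0.0938 each). With upACSS2, Sst was at 158, 179 and 221 CPM with tau and 238, 281 and 231 CPM with PBS, also without overlap (-0.42, SE 0.13, adjusted p = 0.17), and Pdyn was at 4.04, 5.82 and 2.85 CPM against 3.99, 4.38 and 5.71 CPM. The Pdyn difference between the viruses was -1.73 (SE 0.46, adjusted p = 0.233). The interaction called 0 of 10 genes and 0% of all in edgeR (3 at an unadjusted p under 0.05), and DESeq2 called Pdyn (adjusted p = 0.0387).

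Other markers moved in the same stimulated cultures. The summed level of the 18 GABAergic markers was 2263 to 2612 CPM in vector tau and 2852 to 3229 CPM in vector PBS cultures, and 2806 to 3254 CPM in upACSS2 tau and 3398 to 4019 CPM in upACSS2 PBS cultures. Of those 18 genes, 17 had a negative difference with tau in vector cultures. The summed astrocyte markers were 3186 to 4948 CPM in vector tau and 6585 to 10429 CPM in vector PBS cultures, with negative differences in 10 of 10. Over the 12 stimulated libraries the log2 level of Tac1 had a Pearson r of 0.94 with the summed GABAergic markers and that of Sst one of 0.92, while that of Pdyn had one of -0.07. Their part in the Tac1 and Sst differences was not tested.

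In cultures without virus, 0 of 9 testable genes and 0% of all genes passed edgeR's test for tau (3 genes at an unadjusted p under 0.05), and DESeq2 called Tac1 (adjusted p = 0.0171). Tac1 was at 11.5, 17.7, 15 and 12.3 CPM with tau and at 24.3, 24.4 and 48.5 CPM with PBS (-1.20, SE 0.28, adjusted p = 0.306). Sst was at 173, 163, 387 and 123 CPM with tau and at 343, 317 and 750 CPM with PBS (-1.15, SE 0.46, adjusted p = 0.341). The groups did not overlap for Tac1 and did for Sst, through tau replicate 3 against the lower pair of PBS cultures.

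All 9 differences without virus were negative, with a median of -0.87 against 0.01 over all genes. The GABAergic markers were negative in 17 of 18 with a median of -1.14 (summed 1211 to 1703 CPM with tau, 2232 to 3299 CPM with PBS), and the 10 astrocyte markers were all positive with a median of 0.62. PBS replicate 3, the library that stood apart, had the highest level of all 10 genes in this table, as with Vip at 7.49 CPM against 2.53 and 2.14 CPM in the other PBS cultures. Without it 5 of the 9 differences were negative and their median was -0.05. The Tac1 difference was then -0.78 (adjusted p = 0.233), that of Sst -0.64 (adjusted p = 0.567) and that of Adcyap1 1.04 (adjusted p = 0.441). The labels give no reason to leave that library out.

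**Figure D4:**
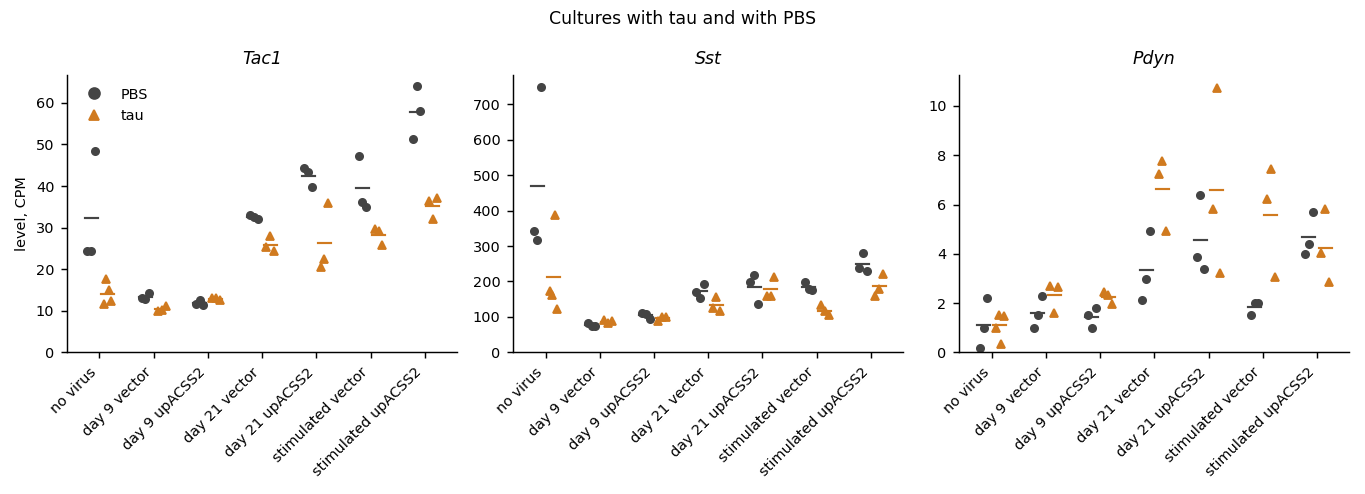
Level of Tac1, Sst and Pdyn in CPM in each library of the 7 pairs of PBS cultures (circles) and tau cultures (triangles), with the mean of each group as a bar. Tau lies below PBS without overlap for Tac1 in 6 pairs, and Pdyn is above PBS without overlap in the stimulated vector pair.

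The upACSS2 virus was compared with vector in each culture condition. On day 9 with PBS, Sst was at 111, 107 and 93.5 CPM with upACSS2 and at 81.7, 74.7 and 74.1 CPM with vector, and rose by 0.43 (SE 0.06, adjusted p = 0.00101). Sst was the only one of 8 testable genes that passed, where 10.2% of all genes did, and with all 24 unstimulated libraries in 1 fit its adjusted p was 0.623. With tau on day 9 it was at 87.3, 101 and 101 CPM against 90.1, 81.4 and 88.9 CPM, and the groups overlapped (0.15, SE 0.07, adjusted p = 0.337). There 0 of 8 genes passed, against 0.692% of all (2 at an unadjusted p under 0.05, DESeq2 0); Tac1, at 13.1, 13 and 12.6 CPM against 9.96, 10.2 and 11.2 CPM, did not overlap (0.30, SE 0.09, adjusted p = 0.101).

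In stimulated tau cultures Sst was again the gene that passed, 1 of 10 where 0.937% of all genes did. It was at 158, 179 and 221 CPM with upACSS2 and at 132, 116 and 105 CPM with vector, and rose by 0.66 (SE 0.13, adjusted p = 0.0383). The groups were apart, and the call was lost without any 1 of 5 of the 6 libraries, vector tau replicate 2 being the exception (adjusted p from 0.0752 to 0.137), and with only these groups in the fit (0.074). Among the receptors Npy2r, a presynaptic receptor for neuropeptide Y, rose by 1.67 and Crhbp by 0.90. Of the 18 GABAergic markers 17 had a positive difference, with summed levels as given above.

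In stimulated PBS cultures 0 of 10 genes passed for upACSS2, where 0.208% of all genes did; 5 were at an unadjusted p under 0.05 and DESeq2 called 4 (Tac2, Tac1, Pdyn and Sst). Tac2 was at 0.384, 0.590 and 0.928 CPM with upACSS2 and at 9.00, 0.859 and 6.26 CPM with vector (-3.06, SE 0.73, adjusted p = 0.106). The overlap came from vector replicate 2, without which the difference was -3.60 (adjusted p = 0.0218), and with a replicate block it was -2.76 (adjusted p = 0.0332). Tac1 was at 51.4, 64.1 and 58.1 CPM against 47.2, 36.3 and 34.9 CPM (0.55, SE 0.12, adjusted p = 0.0882). Pdyn was at 3.99, 4.38 and 5.71 CPM against 1.52, 1.99 and 2.02 CPM (1.33, SE 0.33, adjusted p = 0.11). The groups of Tac1 and of Pdyn did not overlap.

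On day 21 without stimulation 0 of 9 genes passed for upACSS2, in PBS cultures (0.0137% of all genes, 1 neuropeptide gene at an unadjusted p under 0.05, DESeq2 0) and in tau cultures (0.0273%, 2 and DESeq2 0). Tac2 in PBS cultures was at 0.942, 0.648 and 2.05 CPM with upACSS2 and at 7.21, 3.50 and 0.743 CPM with vector, overlapping groups (-1.64, SE 0.72, adjusted p = 0.288). Tac2 shares this low level in upACSS2 PBS cultures with the stimulated table, but its vector PBS libraries span 0.743 to 7.21 CPM in one table and 0.859 to 9.00 CPM in the other. Over the 12 stimulated libraries Tac2 and Cck had a Pearson r of 0.94, as a description of libraries that share virus and tau groups. At day 9, upACSS2 in PBS cultures was also followed by called differences of 0.65 in Npy2r, -0.42 in the somatostatin receptor gene Sstr3, -0.44 in Vgf and -0.22 in Ctsl, and in tau cultures of 0.69 in Crhbp. Tau with vector on day 9 gave -0.69 in Crhbp, -0.56 in Vgf, -0.35 in Pcsk1 and -0.17 in Scg2.

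In the mice no neuropeptide gene passed for the virus. The counts were 0 of 10 in aged mice, 0 at 10 months, 0 in PS19 mice at 1 month and 0 at 6 months, and 0% of all genes passed in each (edgeR; 0, 0, 0 and 1 of the 10 at an unadjusted p under 0.05, DESeq2 0 in each). The aged mice, with 12 in each group, gave the narrowest estimates. Npy ranged from 22.2 to 40.5 CPM with a median of 29.0 CPM with upACSS2 and from 22.5 to 39.4 CPM with a median of 31.9 CPM with vector (-0.04, SE 0.09, adjusted p = 0.996). Sst ranged from 92.7 to 254 CPM (median 175 CPM) with upACSS2 and from 115 to 238 CPM (median 167 CPM) with vector (-0.04, SE 0.14). Groups overlapped for all 10 genes, and the differences in aged mice lay between -0.08 and 0.24.

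At 10 months the differences lay between -0.77 (Tac2) and 0.05 (Npy). Tac2 was at 7.41, 1.48, 2.37, 1.74 and 2.31 CPM with vector and at 1.19 to 2.70 CPM (median 1.87 CPM) with upACSS2, overlapping groups with adjusted p = 0.582. Replicate 1 of the vector mice was the high one, and without it the Tac2 difference was -0.06 (SE 0.29, adjusted p = 0.961). In that library Gpr151, a gene of the medial habenula, was at 12.1 CPM against a median of 1.35 CPM in the table. Of other thalamus and habenula markers, Zic1 was also high (35.9 against 7.96 CPM). Rgs16 was near its median (7.60 against 7.45 CPM) and Slc17a6 below it (14.2 against 22.6 CPM). Vector replicate 2 had a larger sum of these markers, 396 against 150 CPM, with Gpr151 at 0.891 CPM and Tac2 at 1.48 CPM. The part of neighbouring tissue in the Tac2 value was not tested.

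In PS19 mice at 6 months Tac2 was at 2.03, 1.58, 1.34, 2.38 and 2.52 CPM with upACSS2 and at 2.52, 2.63, 3.54, 35.4 and 2.54 CPM with vector. Every vector library lay above the highest upACSS2 library, although the nearest values both round to 2.52 CPM, and the difference was -2.21 (SE 0.68, adjusted p = 0.2). Without vector replicate 4, the library at 35.4 CPM, it was -0.48 (SE 0.40, adjusted p = 0.642). Vector replicate 4 held the highest Tac2, Adcyap1 (23.9 CPM) and Tac1 (16 CPM) of all 20 PS19 mice and the lowest Npy (10.6 CPM) and Sst (67.8 CPM). In that mouse the 10 thalamus and habenula markers summed to 566 CPM against a median of 101 CPM, and Gpr151 was at 63.8 CPM against 1.48 CPM. The medial habenula is known for high Tac2 and Tac1, which is given as background; its part in these values was not tested. Another PS19 mouse, upACSS2 replicate 4 at 1 month, had a marker sum of 599 CPM with Tac2 at 1.82 CPM and Gpr151 at 1.43 CPM.

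Vip was raised in 2 PS19 vector mice. At 1 month it was at 12.6, 15.9, 13.1, 39.5 and 12.5 CPM with vector and at 13.3, 11.5, 13, 13.8 and 19.8 CPM with upACSS2, and at 6 months at 13.4, 14.3, 39.95, 13.3 and 15 CPM and at 10.7, 13.4, 17.7, 16.8 and 10.8 CPM. The 2 high libraries, vector replicate 4 at 1 month and vector replicate 3 at 6 months, also had the highest summed neocortex markers (484 and 412 CPM against a median of 257 CPM), the highest Crh (4.36 and 3.37 CPM) and, after vector replicate 4 at 6 months, the highest Adcyap1 (12.9 and 16.4 CPM). Across the 20 PS19 mice Vip had a Pearson r of 0.79 with the summed neocortex markers, and across the 24 aged mice one of 0.78. In the aged mice Crh had one of 0.80 with them, and the highest Crh libraries, at 4.50 and 4.36 CPM, were also those with marker sums of 524 and 560 CPM. The part of neighbouring tissue in these levels was not tested. Leaving out all libraries whose sum of either marker list exceeded 1.5 times the median of their table, an alternative chosen after seeing the data, left the count at 0 in every mouse comparison.

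**Figure D5:**
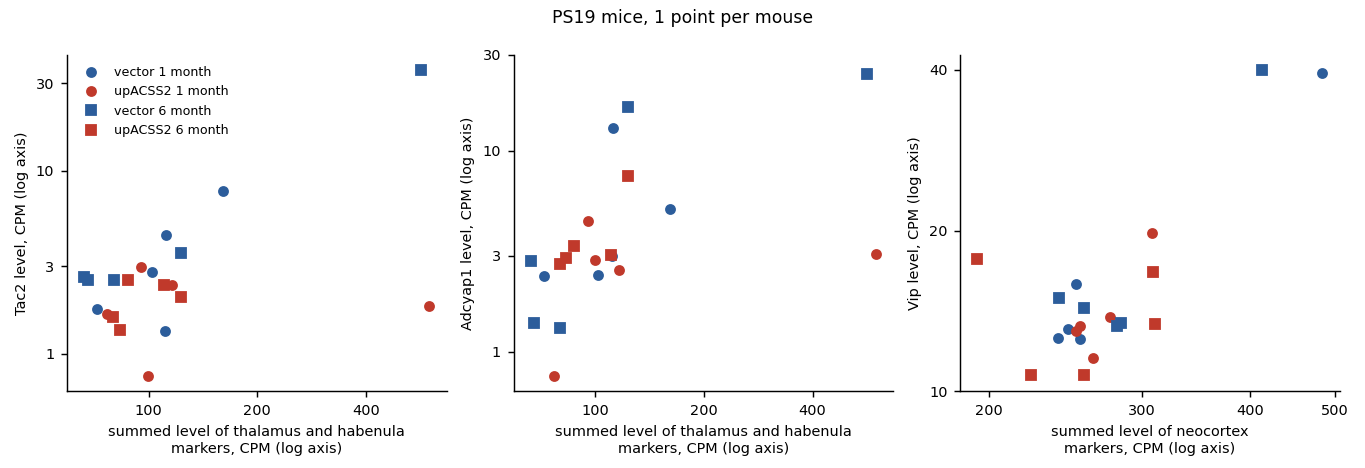
Level of Tac2 and Adcyap1 against the summed thalamus and habenula markers, and of Vip against the summed neocortex markers, in CPM on log axes, in 20 PS19 mice; colour gives the virus and shape the time after injection. The vector mouse with 35.4 CPM of Tac2 has a marker sum of 566 CPM, and the vector mice with 39.5 and 39.95 CPM of Vip have neocortex sums of 484 and 412 CPM.

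Between 1 and 6 months after injection, 0 of 10 genes passed in PS19 vector mice, where 7.46% of all genes did (2 at an unadjusted p under 0.05; DESeq2 called Cck), 0 in upACSS2 mice (0.0442%; 0 and DESeq2 0) and 0 in the interaction of virus and time (0%; 0 and DESeq2 0). Cck, the most abundant per kilobase in PS19 mice, was at 284, 299, 302, 316 and 243 CPM at 1 month and at 254, 227, 156, 197 and 280 CPM at 6 months with vector (-0.37, SE 0.12, adjusted p = 0.0543). The groups overlapped, since replicate 5 at 1 month was lower than replicates 1 and 5 at 6 months. The call was made without replicate 5 at 1 month (-0.44, adjusted p = 0.0327), without replicate 5 at 6 months (-0.49, adjusted p = 0.0235), with RLE size factors (adjusted p = 0.0493) and by DESeq2 (adjusted p = 0.0195), and without the libraries rich in neighbouring tissue markers the difference was -0.22 (adjusted p = 0.231). With upACSS2, Cck was at 321, 291, 271, 265 and 281 CPM and then at 239, 261, 264, 269 and 273 CPM (-0.13, SE 0.12, adjusted p = 0.649). Pcsk1n, whose product proSAAS inhibits the convertase Pcsk1, was the only receptor or processing gene that passed, and fell by 0.40 in vector mice (adjusted p = 0.043).

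Pairs of the genes were also compared within tables. Over the 24 unstimulated libraries, which culture day dominates, Npy and Vip had a Pearson r of 0.93, Npy and Penk 0.93, and Sst and Adcyap1 -0.35. Over the 24 aged mice Sst and Cck had one of 0.81, Vip and Tac2 0.82, and Sst and Pdyn -0.49. Over the 11 mice of 10 months Pdyn had one of 0.91 with the summed dentate gyrus markers, against 0.39 in the aged and 0.59 in the PS19 mice. Libraries of a table share their groups and differ in depth, and these values describe them only.

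The genes with the most similar pattern were found by Pearson correlation of log2 CPM over the 24 unstimulated libraries and, separately, the 24 aged mice. Culture day dominates the unstimulated libraries, and Crh held only 0 to 11 counts in each of them. Each nearest gene is the top of a very large number of candidates, so a different one in cultures and mice carries little weight. In cultures they were Nek7 for Tac1 (0.967), Pls3 for Npy (0.981), Nxph1 for Sst (0.945), Thy1 for Cck (0.978), Aldoc for Penk (0.959), G6pc3 for Pdyn (0.879), Immt for Crh (0.669), Kat14 for Vip (0.970), Ptpn5 for Adcyap1 (0.867) and Atg4c for Tac2 (0.881). Aldoc is itself an astrocyte marker and was one of the 10 summed above. In aged mice they were Gap43 for Tac1 (0.900), Nrgn for Npy (0.835), Ctxn1 for Sst (0.906), Sf3b5 for Cck (0.862), Fbxl16 for Penk (0.771), Pde7b for Pdyn (0.910), Igfbp6 for Crh (0.931), Mgst3 for Vip (0.858), Id2 for Adcyap1 (0.880) and Etnk2 for Tac2 (0.842). The nearest gene differed between cultures and mice for each of the 10, and the next nearest were also different: Svil, Syne1, Abat, Nrn1, Dtna, Cln6, Nefl, Car7, Scamp5 and Arhgef17 in cultures, and Myh7, Cacnb3, Galnt9, Ube2ql1, Prmt8, Gabrd, Rprm, Rgs4, Prr16 and Gnb4 in aged mice, in the same order from Tac1 to Tac2 (Tac1, Npy, Sst, Cck, Penk, Pdyn, Crh, Vip, Adcyap1, Tac2).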

How the data were processed

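RNA from hippocampal cultures and hippocampus was purified with Trizol and RNeasy columns and made into libraries with an NEB kit, per the labels' protocols. The authors deposited raw gene counts in 6 tables. Per the submitters' processing notes STAR, featureCounts, HTSeq and DESeq2 were used with build mm10; their roles and versions and the strand setting are not given in the sources used here, so reads from overlapping or antisense genes could be shared. Groups follow the sample titles, since the treatment field of some samples contradicts them.

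Counts were fitted per table with edgeR 4.0.16 (R 4.3.3, limma 3.58.1): TMM scaling, filterByExpr, quasi-likelihood F tests, two-sided, with Benjamini-Hochberg adjustment over all genes tested and a threshold of 0.05. Day 9 and day 21 were fitted apart for virus and tau and together for culture day. They were split since an earlier look at these data found a larger spread on day 21. The spread between replicates, as edgeR's common coefficient of variation, was 0.042 on day 9, 0.189 on day 21 and 0.135 with both days. The culture day test thus pooled days of unlike spread. For stimulation, the stimulated table was joined to the unstimulated day 21 libraries. A row with no gene name, 6.13% to 8.74% of counts in the cultures without virus, was left out. SE belongs to the fitted log2 difference. Exon lengths are the union of all annotated exons of a gene in GENCODE M21. The fits were checked on simulated counts. Alternatives were a replicate block, each replicate left out, limma voom with a variance per group, a fit of all 24 unstimulated libraries or of just the compared groups, RLE size factors, keeping low genes, DESeq2 1.42.0, a prior count of 0.5, and for aged mice a term for replicates 1 to 3 or replicates 4 to 12 only.

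Replicate numbers were taken to pair the samples where the deviations of every same-numbered pair correlated above 0.1. These were tau against PBS without virus (0.220 to 0.394), stimulated vector cultures with tau against PBS (0.140 to 0.344) and stimulated tau cultures with upACSS2 against vector (0.111 to 0.383). The others were stimulated against unstimulated upACSS2 cultures with PBS (0.441 to 0.630) and with tau (0.108 to 0.284). The labels do not say that the numbers mark shared cultures, and the main fits held no replicate block. The 10 genes, the marker lists and the tests were chosen with earlier results of these data known. All 10 genes are named, with at most 4 called receptor or processing genes per comparison by size of change, and the 2 genes nearest in pattern to each.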

Additional observations from a re-analysis of the deposited data

Results flagged for a closer look

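In groups of 4 to 10 libraries, the highest or lowest log2 CPM was compared with the rest of its group by Dixon's 95% criterion. Of 70 sets of values tested 8 were flagged, and chance alone flags about 1 in 20. In the PS19 vector mice at 6 months, Tac2 was flagged in replicate 4 at 5.15 log2 CPM (35.4 CPM, the other 4 mice 2.52 to 3.54 CPM), and Vip in replicate 3 at 5.32 (39.95 CPM, others 13.3 to 15 CPM). In the PS19 vector mice at 1 month, replicate 4 was flagged for Vip at 5.31 (39.5 CPM, others 12.5 to 15.9 CPM) and for Sst at 7.17 (144 CPM, others 90.5 to 99.1 CPM). In the PS19 upACSS2 mice at 6 months, Sst was flagged in replicate 4 at 7.35 (164 CPM, others 118 to 120 CPM) and Adcyap1 in replicate 1 at 2.92 (7.46 CPM, others 2.73 to 3.34 CPM). Tac2 was flagged in replicate 1 of the 10-month vector mice at 2.94 (7.41 CPM, others 1.48 to 2.37 CPM), and in replicate 3 of the tau cultures without virus at 1.39 (2.53 CPM, others 0.384 to 0.508 CPM). Of the 8 flagged values, 5 come from libraries whose summed neocortex or thalamus and habenula markers exceeded 1.5 times the median of their table. Replicate 4 of the PS19 vector mice at 1 month gave both its Vip and its Sst value, and only mice were screened this way. Other mice over the limit had no flagged value, such as 10-month vector replicate 2 and PS19 upACSS2 replicate 4 at 1 month. Whether the markers account for the values was not tested.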

How the results depend on the processing

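Among recomputed counts of called neuropeptide genes, 371 stayed within 1.5 times the reported count and 38 did not. A count of 0 that stayed 0 was taken as unchanged, and most reported counts are 0. The 371 thus say little about how stable the calls are. No gene that passed a comparison under any setting changed direction in it. DESeq2 called 1 gene for tau without virus, 4 for upACSS2 in stimulated PBS cultures, 1 in the stimulated interaction and 1 for time in PS19 vector mice, where the reported counts are 0; with RLE size factors the last was also 1. With all 24 unstimulated libraries in 1 fit the counts for upACSS2 in PBS cultures and for tau with vector on day 9 were 0 instead of 1. Without a filter on low counts they were 2 instead of 1 for tau with vector on day 9 and 2 instead of 0 for the interaction on day 9. With only the 2 groups compared they were 0 for tau with vector on day 9, for upACSS2 in stimulated tau cultures and for tau in stimulated vector cultures. With the replicate block the count for upACSS2 in stimulated PBS cultures was 1 instead of 0, where the numbers were not taken to pair the samples. In the comparisons taken as paired the block added Tac1 for tau in stimulated vector cultures and changed no other call. Leaving out 1 library at a time gave 0 to 1 for tau with vector and for the interaction on day 9, for tau with upACSS2 on day 21, for upACSS2 in stimulated PBS and in stimulated tau cultures, for stimulation of upACSS2 tau cultures and for time in PS19 vector mice, 0 to 3 for tau in stimulated vector cultures and 0 for tau in stimulated upACSS2 cultures. The cause of these shifts was not tested. Over all genes the count moved from 0 to 326 with DESeq2 for tau without virus, from 2 to 374 with DESeq2 and 1576 with all 24 libraries for upACSS2 on day 21 with PBS, and from 451 to 1534 with DESeq2 and 0 with only the 2 groups for tau in stimulated vector cultures. Counts under about 20 a library limit Crh in cultures and Vip on day 9.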
